A study of Mus musculus with 6 samples.

Results

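The 10 genes described here are marker genes of brain blood vessels, taken as 10 of the 53421 rows of the count table through their gene IDs in GRCm38. Endothelial cells, which line the vessels, are marked by Cldn5, Pecam1, Cdh5, Flt1, Kdr and Tek (6 genes), and mural cells, the pericytes and smooth muscle cells that wrap the vessels, by Pdgfrb, Rgs5, Acta2 and Vtn (4 genes). All 10 were in the table, and 9 passed the filter on low counts. Cldn5 did not. The libraries came from cultured mouse cerebellar granule cells (GCs), the small excitatory neurons of the cerebellar cortex, of strain C57BL/6. The labels give the age as postnatal day 8, and the methods take pups from postnatal day 6 to 8. Lentivirus delivered either a hairpin that targets Ythdf2, the gene of a reader of the m6A mark on RNA, to the cultures of 3 libraries (shYthdf2), or a control hairpin to those of the other 3 (shCtrl). By the methods, the meninges were removed before dissociation and infected cells were selected with puromycin. The numbers 1, 2 and 4 that the library names give to the replicates are kept here. The names of the 3 shYthdf2 libraries share 1 stem, so hairpins cannot be compared. The sources used here name no promoter that would restrict the hairpin to GCs. The study compared KD with control to find transcripts that depend on YTHDF2. The vessel genes were examined as possible signs of other cells in the cultures, and their levels were compared between the groups.

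Which 3 libraries are the KD is given one way by the library names and the opposite way by the sample titles and genotype labels. The library names begin with KD2_3 or KDC. The titles call the KD2_3 libraries WT and the KDC libraries KDYthdf2. The names were followed. If the titles and genotype labels were right, every direction below would invert. No name holds the word shYthdf2 or shCtrl, which are group names given here to the KD2_3 and KDC libraries. Ythdf2 had 501, 402 and 501 normalized counts in the shYthdf2 libraries (replicates 1, 2 and 4). It had 618, 841 and 628 in the shCtrl libraries, so that the groups did not overlap. The log2 fold change was -0.57 (SE 0.16), with an edgeR adjusted p of 0.125. A normalized count is a count after TMM scaling, set to a common library of 18966737 counts. The libraries held 17246821 to 21546595 counts. Replicate 2 of both groups stood apart from the other 4 libraries, and results are therefore also given without it. That left 2 libraries a group and 9186 of 17422 genes (52.7%) past an adjusted p of 0.05, against 104 of 17214 (0.604%) with all 6 libraries.

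In the developing brain, VEGF-A made by neurons and glia acts on endothelial cells through KDR (VEGFR2), the main signalling receptor, whereas FLT1 (VEGFR1) binds the same ligand with high affinity and acts largely as a decoy. Endothelial cells secrete PDGF-B, which recruits pericytes through PDGFRB, and mural cells and other perivascular cells supply angiopoietin-1 for TEK (TIE2), a receptor that stabilizes the vessel wall. Endothelial cells are joined by VE-cadherin (CDH5), PECAM1 and the tight junction protein claudin-5 (CLDN5), which seals the blood-brain barrier. None of them is used here as a marker gene of GCs, and which cells of these cultures expressed them was not tested.

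The 2 VEGF receptors lie on chromosome 5 and are related by sequence, and the sequences just upstream of their starts are shown because their levels differed in how they varied between libraries. They are given from RefSeq (GRCm38.p6), 5′ to 3′ on the strand of the gene, which is the minus strand for both. The window was the 250 bases before the start, without bases that GENCODE places inside the gene. Capitals mark AGGAAG, the core of many binding sites of ETS-family factors, which was searched on both strands.
Flt1, chr5:147726012-147726261: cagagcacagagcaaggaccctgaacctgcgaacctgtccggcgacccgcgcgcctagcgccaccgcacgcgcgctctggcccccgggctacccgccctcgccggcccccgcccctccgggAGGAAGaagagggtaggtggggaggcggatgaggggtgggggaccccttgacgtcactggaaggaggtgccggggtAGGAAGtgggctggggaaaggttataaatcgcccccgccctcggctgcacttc
Kdr, chr5:75978459-75978705: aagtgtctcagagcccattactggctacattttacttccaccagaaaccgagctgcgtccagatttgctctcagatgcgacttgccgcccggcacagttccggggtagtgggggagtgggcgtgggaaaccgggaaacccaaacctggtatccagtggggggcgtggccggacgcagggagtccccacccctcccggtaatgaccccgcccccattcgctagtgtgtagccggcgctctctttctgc
AGGAAG was found 2 times before Flt1, starting at positions -129 and -53 from the start, and 0 times before Kdr. The motif occurred in 9686 of 32851 promoter windows of 250 bases (29.5%). Of the 10 genes, 7 had a promoter in the RefSeq table, and Flt1 was the 1 with a match among them. Pecam1, Cdh5 and Pdgfrb are the others. A match is a string of letters and not a measured binding site.

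The levels of the 10 genes were compared per length, as RPKM over the merged exons of each gene, averaged over all 6 libraries. The highest means were those of Vtn at 8.61 RPKM (range 2.57 to 22.2) and Acta2 at 6.99 (4.09 to 13.5), followed by Pdgfrb at 2.05 (1.17 to 4.09), Rgs5 at 1.22 (0.710 to 2.37) and Cdh5 at 1.16 (0.358 to 3.47). The order of these 5 is not firm, since each range overlapped that of its neighbour except for Acta2 and Pdgfrb, and the range of Vtn reached below the top of that of Pdgfrb. It also differed between the groups. Vtn was above Acta2 in shYthdf2 (11.6 ± 9.12 and 7.87 ± 4.90 RPKM, SD, n = 3) but not in shCtrl (5.59 ± 4.88 and 6.11 ± 3.33), and Cdh5 was above Rgs5 in shYthdf2 (1.64 ± 1.59 and 1.34 ± 0.890) but not in shCtrl (0.682 ± 0.505 and 1.10 ± 0.343). Below them were Kdr at 0.496 (0.301 to 0.745), Pecam1 at 0.238 (0.197 to 0.288), Tek at 0.138 (0.0868 to 0.190), Flt1 at 0.0645 (0.0172 to 0.125) and Cldn5 at 0.0068 (0 to 0.0409). The range of Kdr overlapped those of Cdh5 and Rgs5 but not that of Pecam1, and the ranges of Pecam1 and Tek did not meet, whereas Tek overlapped Flt1 and Flt1 overlapped Cldn5. Thus the 4 mural genes and Cdh5 were above Cldn5, Pecam1, Flt1, Kdr and Tek in mean level in both groups. For comparison, Zic1, a transcription factor of GCs, stood at 589 RPKM.

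The name endothelial was checked against further markers, most of which were too low to be tested. Cldn5 had 1 count in 114072564 over all libraries, in shCtrl replicate 4. The limit that a count of 0 allows (3 counts) corresponds to 0.0991 to 0.119 RPKM, and it covers counting error only. Of 22 other endothelial genes, 15 were removed by the low-count filter. Tie1, Erg, Sox17, Ly6c1, Robo4 and Clec14a had at most 3 counts in every library (these 6 were picked out after their values were seen). The 7 tested had a median log2 fold change of 0.06, with 4 higher and 3 lower in shYthdf2, and 0 passed the adjusted threshold. The 3 with the most counts were Plvap, Eng and Sox7. Plvap, of fenestrated endothelium, had 89.7 ± 15.1 normalized counts (SD, n = 3) in shYthdf2 and 130 ± 9.82 in shCtrl, and Sox7, a transcription factor, had 30.4 ± 16.0 and 30.7 ± 9.04. The log2 fold change of Eng, a co-receptor of the TGF-beta family, was 0.77 (SE 0.45, edgeR adjusted p 0.385). The rest of those tested (named after their values were seen) were Emcn, with 13 to 37 counts a library, Vwf (15 to 37), Esam (17 to 30) and Ramp2 (9 to 39). The groups did not overlap for Emcn, with a log2 fold change of 1.06 (edgeR adjusted p 0.132). Nor did they for Plvap, with -0.53 (adjusted p 0.203). The 6 genes of the endothelial list are therefore called by their names below.

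For the mural label the same check gave a mixed result. Of 18 further mural genes, 12 were tested, with 10 higher and 2 lower in shYthdf2, a median log2 fold change of 0.64 and 0 past the adjusted threshold. Their leading genes were Notch3, with 289 ± 37.1 and 237 ± 50.2 normalized counts in shYthdf2 and shCtrl, Mcam, with 266 ± 41.6 and 171 ± 117, and Cspg4, with 263 ± 25.4 and 160 ± 78.0. Cspg4 encodes NG2, which also marks oligodendrocyte precursors. Several markers of brain pericytes were nearly empty (picked out after their values were seen): Higd1b had 0 to 6 counts and Kcnj8 2 to 7 counts a library. Tagln, an abundant gene of smooth muscle (also picked out afterwards), had 1 to 6 counts. Other genes of the same list went the other way and passed the filter (again picked out afterwards). Myl9 had 51 to 217 counts a library, Mylk 20 to 86, Tpm2 17 to 76 and Myh11 13 to 43. Applied to the 4 genes, the word mural therefore names the list and not a cell type shown to be present.

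Of the 9 genes tested, 9 had a positive and 0 a negative log2 fold change in shYthdf2, with a median of 0.64, against a median of 0.01 over all 17214 genes tested. None passed the adjusted threshold by edgeR (adjusted p 0.119 to 0.930) or by DESeq2. Of all genes, 0.604% passed by edgeR, and 1137 of the 16625 with an adjusted p (6.84%) passed by DESeq2. At an unadjusted p under 0.05, 1 of the 9 (Kdr) was called, and 20.1% of all genes were. The groups did not overlap, with shYthdf2 above, for 1 of the 9 (Kdr), against 12.6% of all genes. In the comparison replicate by replicate, 6 of the 9 were higher in shYthdf2 for all 3 numbers, namely Cdh5, Flt1, Kdr, Pdgfrb, Acta2 and Vtn, against 27.0% of all genes. With the replicate number as a block in edgeR, 1 of the 9 (Vtn) passed the adjusted threshold, against 1.35% of all genes. In these bulk libraries, a difference in the number of cells of a type and one in RNA per cell cannot be told apart.

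**Figure D1:**
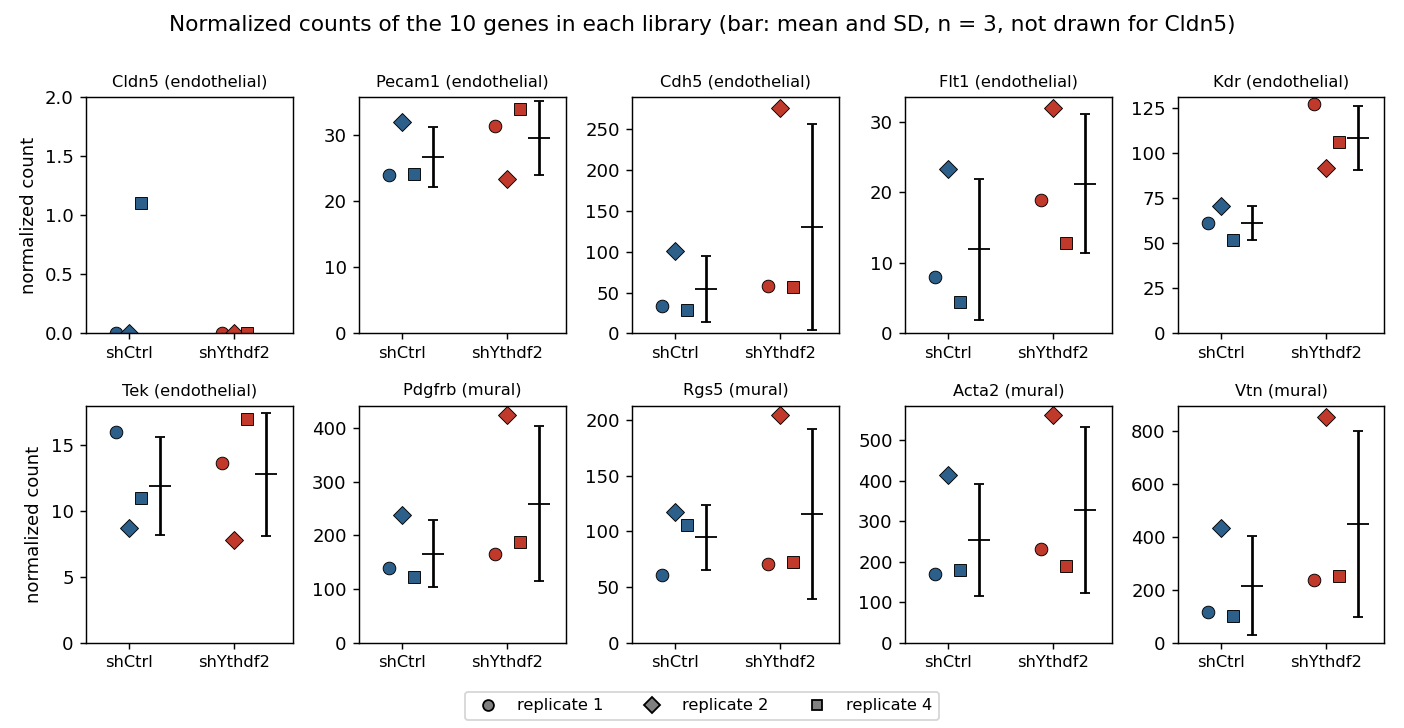
Normalized counts (y axes, each from 0) of the 10 genes in the 3 shCtrl and 3 shYthdf2 libraries, with the replicate number as the shape of the point and the mean and SD beside it. The 2 diamonds (replicate 2) are the highest points of Cdh5, Flt1, Pdgfrb, Rgs5, Acta2 and Vtn, and only Kdr has groups that do not overlap.

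Kdr had 128, 92.1 and 106 normalized counts in shYthdf2 replicates 1, 2 and 4, and 61.2, 70.7 and 51.6 in shCtrl. The lowest shYthdf2 library was above the highest shCtrl library, so the groups did not overlap, and replicate 2 was not high. The means were 109 ± 17.9 (SD, n = 3) and 61.2 ± 9.54, a fold of 1.77 (95% interval 1.22 to 2.57) and a log2 fold change of 0.82 (SE 0.23). The edgeR adjusted p was 0.119 over all genes, 0.0848 with the replicate block and 0.0549 by DESeq2. Without shCtrl replicate 2 the adjusted p was 0.0361, with a log2 fold change of 0.94. Without replicate 2 of both groups it was 2.26e-04, with 1.04, in a fit where 52.7% of all genes passed.

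Flt1, the decoy receptor, had 18.8, 32.0 and 12.7 normalized counts in shYthdf2 and 7.98, 23.2 and 4.39 in shCtrl. Replicate 2 was the highest of its group on both sides, and the groups overlapped because shCtrl replicate 2 exceeded 2 of the shYthdf2 libraries. Its log2 fold change was 0.82 (SE 0.63), equal to that of Kdr to 2 decimals but with a 95% interval from -0.64 to 2.29. The edgeR adjusted p was 0.507. Without replicate 2 it was 0.0401, with a log2 fold change of 1.29, in a fit where 52.7% of all genes passed. The raw counts of Flt1 were 4 to 33 a library.

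The other genes of the VEGF pathway included ligands with lower values in shYthdf2 and co-receptors with higher ones. Of 8 genes, 5 were tested, 3 of them lower and 2 higher, and 0 passed the adjusted threshold. Vegfa, the ligand of both receptors, had 529, 499 and 514 normalized counts in shYthdf2 and 1113, 456 and 1104 in shCtrl. The shCtrl libraries of replicates 1 and 4 stood apart from the other 4. For Vegfa the log2 fold change was -0.79 (SE 0.31, adjusted p 0.218 by edgeR). Without replicate 2 it was -1.09 with an adjusted p of 1.43e-09, in a fit where 52.7% of all genes passed. Vegfb, a ligand of FLT1, had 346 ± 15.9 and 493 ± 33.1 normalized counts (log2 fold change -0.51, edgeR adjusted p 0.0856), with groups that did not overlap. For Vegfc, a ligand in lymphatic growth, it was -0.31 (adjusted p 0.347). Nrp1, a co-receptor that also guides axons, had 317 ± 71.2 and 147 ± 39.8, again without overlap. Its log2 fold change was 1.11 (SE 0.25), with an edgeR adjusted p of 0.0815, which became 0.0450 with the replicate block. For Nrp2 the log2 fold change was 0.55 (adjusted p 0.208). Vegfd, Pgf and Flt4 were removed by the low-count filter, with 0 to 5, 1 to 5 and 2 to 13 counts a library.

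**Figure D2:**
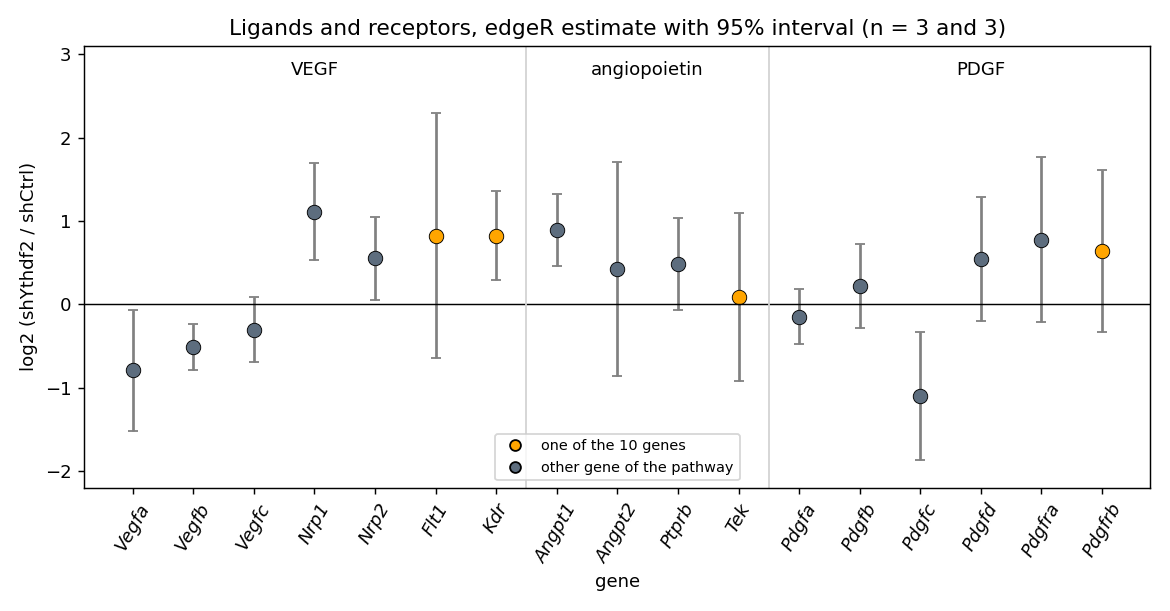
Log2 fold change of shYthdf2 against shCtrl (y axis) for the tested ligands and receptors of the VEGF, angiopoietin and PDGF pathways except Angpt4, with 95% intervals from edgeR and 3 libraries a group. Vegfa, Vegfb and Pdgfc lie below 0 and Nrp1, Nrp2, Kdr and Angpt1 above 0 with their whole interval, although none passed the adjusted threshold.

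Cdh5 had 58.6, 276 and 56.3 normalized counts in shYthdf2 and 33.7, 101 and 28.6 in shCtrl. The 2 replicate 2 libraries were the highest, and shYthdf2 was above shCtrl within each replicate number. The means, 130 ± 126 and 54.3 ± 40.3, gave the highest log2 fold change of the 9 genes, 1.26, with an SE of 0.75 and a 95% interval from -0.49 to 3.02 (edgeR adjusted p 0.392). It was 1.11 with the block (adjusted p 0.0590) and 0.87 without replicate 2 (adjusted p 0.00695, with 52.7% of all genes passing). Cdh5 overlaps an antisense gene, Gm29682, which had 0 to 1 counts a library and no exon base in common with it.

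Pecam1, an adhesion molecule that blood cells also carry, had 31.4, 23.3 and 34.0 normalized counts in shYthdf2 and 24.0, 32.0 and 24.2 in shCtrl. Replicate 2 was the lowest in shYthdf2 and the highest in shCtrl, so the direction depended on the replicate. Its log2 fold change was 0.14 (SE 0.29, 95% interval -0.54 to 0.83, adjusted p 0.819). Tek had raw counts of 13, 8 and 16 in shYthdf2 and 18, 9 and 10 in shCtrl. Here replicate 2 was the lowest library of each group. For Tek the log2 fold change was 0.09 (SE 0.43, 95% interval -0.92 to 1.10, adjusted p 0.930), and it turned to -0.16 without shYthdf2 replicate 4 and to -0.10 without shCtrl replicate 2. These intervals leave room for a fold in either direction, so a lack of difference was not shown for either gene.

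Of the 5 genes around TEK, 4 were tested and 0 passed the adjusted threshold, with 3 higher and 1 lower. Angpt1, the activating ligand, had 423, 431 and 427 normalized counts in shYthdf2 and 190, 294 and 205 in shCtrl. The shYthdf2 libraries were nearly equal and all above shCtrl. Angpt1 had a log2 fold change of 0.90 (SE 0.19), with an edgeR adjusted p of 0.0687 (0.0546 with the block). Angpt2, the context-dependent antagonist, had 44.2 ± 26.6 and 33.0 ± 20.1, Angpt4 had 9.13 ± 3.71 and 9.58 ± 3.67, and Ptprb, a phosphatase that acts on TEK, had 241 ± 55.4 and 172 ± 33.4. Tie1, the partner receptor, had 0 to 3 counts a library.

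For the junction of Cldn5, all 9 partner genes of tight junctions were tested, with 8 higher and 1 lower in shYthdf2, a median log2 fold change of 0.39 and 0 past the adjusted threshold. The 3 with the most counts were Tjp1, the scaffold ZO-1, with 1230 ± 81.8 and 1004 ± 56.4 normalized counts, Cgn with 710 ± 160 and 543 ± 55.0, and Cldn12 with 418 ± 58.0 and 605 ± 57.3. None of the 9 had both replicate 2 libraries as its highest values. Of 8 transporter and barrier genes of brain endothelium, 6 were tested, 3 higher and 3 lower, and 0 passed. Their leading genes, Slc7a5, Slc2a1 and Abcg2, are also used by other brain cells, whereas the pump Abcb1a had 0 to 4 counts a library (named after its values were seen).

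**Figure D3:**
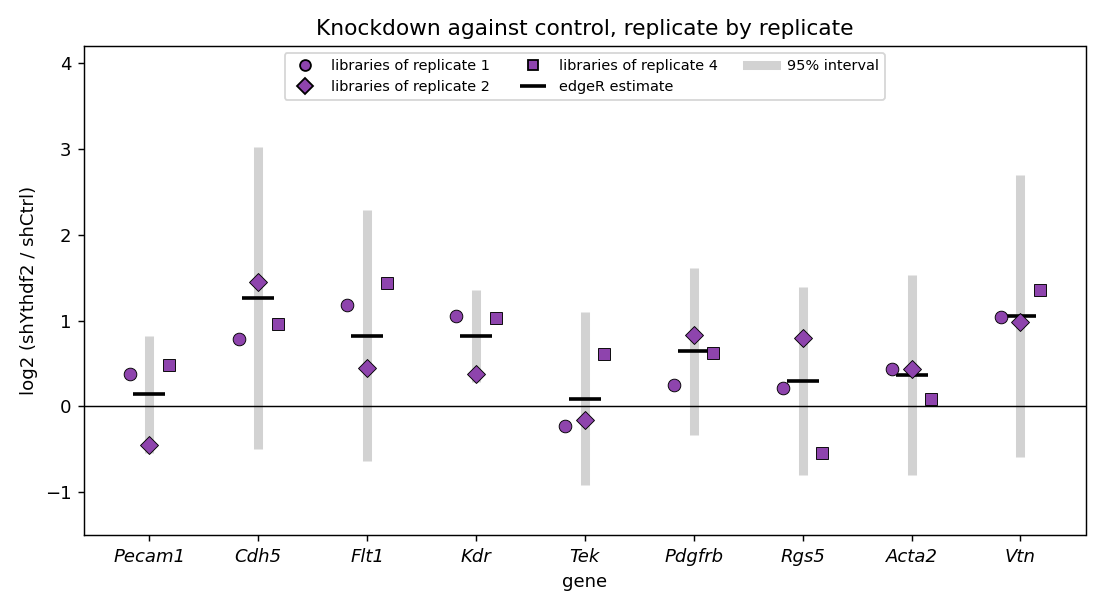
Log2 ratio of shYthdf2 to shCtrl (y axis) for the 9 genes tested, as the ratio within each replicate number (points) and as the edgeR estimate (bar) with its 95% interval (grey). Vtn has the 3 points close together, between 0.98 and 1.35, inside a wide interval from -0.58 to 2.70, and Kdr is the 1 gene whose interval lies above 0.

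Vtn, which encodes vitronectin, an adhesion protein secreted by pericytes, had 236, 853 and 254 normalized counts in shYthdf2 and 114, 432 and 98.9 in shCtrl. Within each replicate number shYthdf2 was above shCtrl, with log2 ratios of 1.04, 0.98 and 1.35, while replicate 2 was several times higher than the others in both groups. The groups overlapped for that reason. The means of 448 ± 351 and 215 ± 188 gave a log2 fold change of 1.06 (SE 0.70) and an edgeR adjusted p of 0.444. With the replicate number as a block, Vtn was higher in shYthdf2, by 1.12 (SE 0.12) on the log2 scale with an adjusted p of 0.0450. Without replicate 2 the log2 fold change was 1.19, with an adjusted p of 2.54e-06, in a fit where 52.7% of all genes passed.

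Of 7 receptors and partners of vitronectin, all tested, 7 were higher and 0 lower in shYthdf2, with a median log2 fold change of 0.33 and 0 past the adjusted threshold. The integrin genes Itgb1, Itgav and Itgb5 had the most counts. Itgb1 had 1545 ± 251 and 1226 ± 235 normalized counts, Itgav had 506 ± 40.3 and 484 ± 49.0, and Itgb5 had 246 ± 113 and 146 ± 72.1.

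Pdgfrb had 165, 425 and 188 normalized counts in shYthdf2 and 138, 237 and 122 in shCtrl. Replicate 2 was again the highest of each group, and each shYthdf2 library exceeded the shCtrl library of its number. The log2 fold change was 0.64 (SE 0.42, 95% interval -0.33 to 1.62), with an edgeR adjusted p of 0.431. The adjusted p was 0.0884 with the block and 0.0187 without replicate 2, where 52.7% of all genes passed. Among the other 5 genes of the PDGF pathway, 3 were higher, 2 lower and 0 past the adjusted threshold. Pdgfb, the ligand of PDGFRB that endothelial cells secrete, had 76.0 ± 12.3 and 65.0 ± 3.16 normalized counts. Pdgfa had 218 ± 11.9 and 242 ± 15.6, Pdgfd had 15.7 ± 1.11 and 10.7 ± 1.60, and Pdgfc had 136 ± 22.7 and 292 ± 117. For Pdgfc the groups did not overlap, and the log2 fold change was -1.10 (edgeR adjusted p 0.137). The second receptor, Pdgfra, a marker of fibroblasts and oligodendrocyte precursors, had 1214 ± 80.8 and 711 ± 502, with a log2 fold change of 0.77 (adjusted p 0.352).

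Rgs5, a regulator of G-protein signalling in pericytes, had 71.1, 205 and 72.2 normalized counts in shYthdf2 and 61.2, 117 and 105 in shCtrl. A single library, shYthdf2 replicate 2, stood above the other 5. The log2 fold change was 0.30 (SE 0.47, adjusted p 0.758), it was -0.40 without that library, and it was -0.20 without replicate 2 of both groups. Acta2, the actin of smooth muscle, had 231, 562 and 190 in shYthdf2 and 170, 415 and 179 in shCtrl. Both replicate 2 libraries were the highest. For Acta2 it was 0.37 (SE 0.50, adjusted p 0.722), and it was -0.28 without shYthdf2 replicate 2. Within the replicate numbers the log2 ratios of Acta2 were 0.44, 0.44 and 0.09, and its log2 fold change was 0.33 with the block (edgeR adjusted p 0.149) and 0.27 without replicate 2 of both groups. Reads of Acta2 can be shared with the near-identical coding sequences of other actins. Actb, Actg1 and Acta1 had log2 fold changes of -0.18, -0.14 and -0.28, and of the 4 other actins tested 1 was higher, 3 were lower and 0 passed the adjusted threshold.

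**Figure D4:**
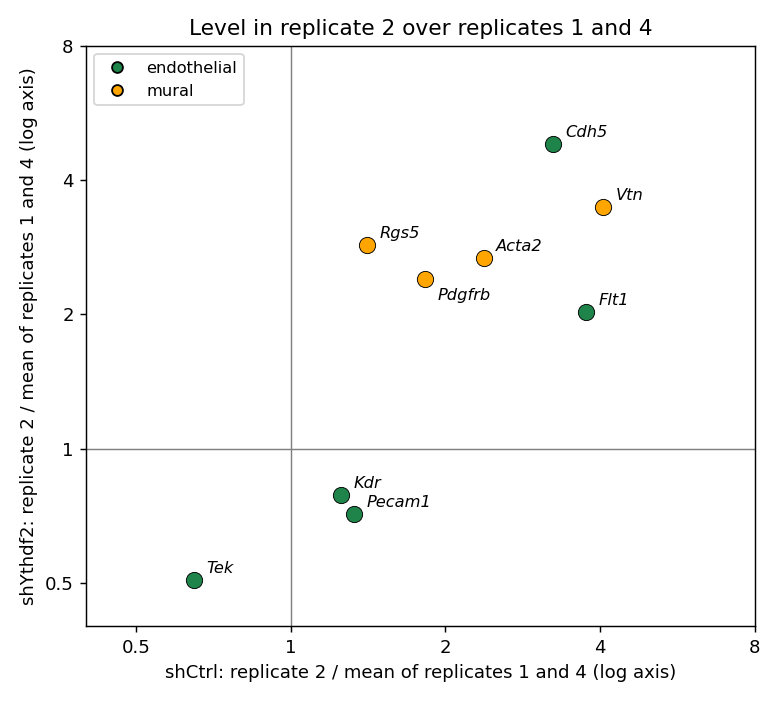
Level in replicate 2 divided by the mean of replicates 1 and 4, in shCtrl (x axis) and in shYthdf2 (y axis), both log axes, for the 9 genes tested. Cdh5, Flt1, Pdgfrb, Rgs5, Acta2 and Vtn lie in the upper right, above 1 in both groups, while Tek is below 1 in both and Kdr and Pecam1 are below 1 in shYthdf2 only.

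Replicate 2 differed from the other libraries in most of these genes. In 6 of the 9, both replicate 2 libraries were above the other 4 libraries, against 20.1% of all genes, and for the same 6 the mean of replicate 2 was at least 2 times that of the other 4 libraries, against 1.93% of all genes. The 6 were Cdh5 (4.26 times), Vtn (3.65), Acta2 (2.54), Flt1 (2.51), Pdgfrb (2.16) and Rgs5 (2.08). Pecam1 had a ratio of 0.974, Kdr of 0.940 and Tek of 0.573. Within the groups, the ratio of Cdh5 was 4.81 in shYthdf2 and 3.24 in shCtrl, and that of Vtn was 3.48 and 4.05. For Rgs5 it was 2.86 and 1.41. Hence all 4 mural genes were high in replicate 2, together with Cdh5 and Flt1, whereas Pecam1, Kdr and Tek were not.

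Over the 6 libraries, Pearson's r of the log2 normalized counts of Cdh5 was 0.99 with Pdgfrb, 0.98 with Vtn and 0.95 with Acta2, but 0.41 with Kdr and -0.04 with Pecam1. Tek and Rgs5 had an r of -0.93. These 6 points share the split between replicate 2 and the rest, and no p is given. Among genes with a symbol and a mean of at least 50 normalized counts, the pattern most like that of Vtn was that of Islr, a gene of mesenchymal cells (r 0.999), which had 70.1, 209 and 71.1 normalized counts in shYthdf2 and 39.0, 116 and 35.2 in shCtrl. The closest pattern was that of Ntn4, a netrin of basement membranes, for both Cdh5 (r 0.998) and Pdgfrb (r 0.997), A930017K11Rik for Acta2 (r 0.999), 2810002D19Rik for Rgs5 (r 0.990), Ap3s1 for Kdr (r 0.997) and Pik3r5 for Pecam1 (r 0.993). Flt1 and Tek had under 20 normalized counts on average and were left out.

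Markers of some other cell types were high in the same libraries. The summed level of Cldn5, Pecam1, Cdh5, Flt1, Kdr and Tek was 11.9 to 22.7 CPM (counts relative to the TMM-scaled library total) in shYthdf2 and 6.37 to 12.4 in shCtrl, a log2 ratio of means of 0.86, and that of the 4 mural genes was 37.1 to 108 and 25.5 to 63.3, a log2 ratio of 0.66. Without replicate 2 of both groups these log2 ratios were 0.85 and 0.51. Left out on its own, shYthdf2 replicate 2 gave 0.52 and -0.05, and shCtrl replicate 2 gave 1.20 and 1.22. All 8 markers of meningeal fibroblasts were tested, with 8 higher and 0 lower in shYthdf2, a median log2 fold change of 0.63 and 0 past the adjusted threshold. Their summed level was 276 to 598 CPM in shYthdf2 and 174 to 512 in shCtrl, and 2.45 times as high in replicate 2 as in the other 4 libraries, beside 2.71 times for the 4 mural genes. Col3a1, Col1a1 and Col1a2 led this list, and 6 of the 8 had both replicate 2 libraries highest. The 6 oligodendrocyte genes, led by Mbp, Cnp and Mag, were all tested, with 6 higher and 0 lower, a median log2 fold change of 0.57 and 0 past the adjusted threshold. Their summed level was 537 to 727 CPM in shYthdf2 and 213 to 798 in shCtrl, 1.99 times as high in replicate 2 as in the other 4 libraries, and 5 of the 6 had both replicate 2 libraries highest. The part of these cell types in the differences of the vessel genes was not tested.

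The lists of microglia, blood, astrocytes, Purkinje cells and GCs had summed levels in replicate 2 of 0.899, 0.972, 1.22, 1.13 and 0.983 times those in the other 4 libraries. Both replicate 2 libraries were highest for 1 of 7, 0 of 2, 2 of 7, 1 of 4 and 3 of 10 genes tested. The sums hide single genes: Gabra6 of the GC list (named after its values were seen) was 2.69 times as high in replicate 2. The 8 genes of microglia, led by C1qb, C1qa and Csf1r, had 23.1 to 62.7 CPM in shYthdf2 and 14.7 to 44.8 in shCtrl, with shYthdf2 replicate 2 the lowest of its group and shCtrl replicate 2 the highest, as for Pecam1, and P2ry12 had 0 to 4 counts (named after its values were seen). Of the 6 blood genes, the globin gene Hba-a2 (named after its values were seen) was at 0 in all libraries, and the sum was 4.60 to 9.32 and 2.95 to 7.20 CPM, most of it from Ptprc. Astrocyte genes, led by Gfap, Slc1a2 and Aqp4, had 520 to 547 and 410 to 644. Purkinje cell genes, led by Calb1, Itpr1 and Car8, had 37.0 to 52.3 and 44.6 to 48.4. The 10 genes of GCs, led by Zic1, Cntn2 and Zic2, had 7863 to 8228 CPM in shYthdf2 and 8520 to 8732 in shCtrl, with 5 higher, 5 lower and 0 past the threshold. Of the microglia genes tested, 6 were higher and 1 lower in shYthdf2. Their median log2 fold change was 1.10, beside 0.64 for the 9 vessel genes tested. Astrocyte genes had 6 higher and 1 lower (median 0.31), blood genes 2 and 0 (0.45), and Purkinje cell genes 1 and 3 (-0.11). None of the tested genes of these 5 lists passed the adjusted threshold.

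**Figure D5:**
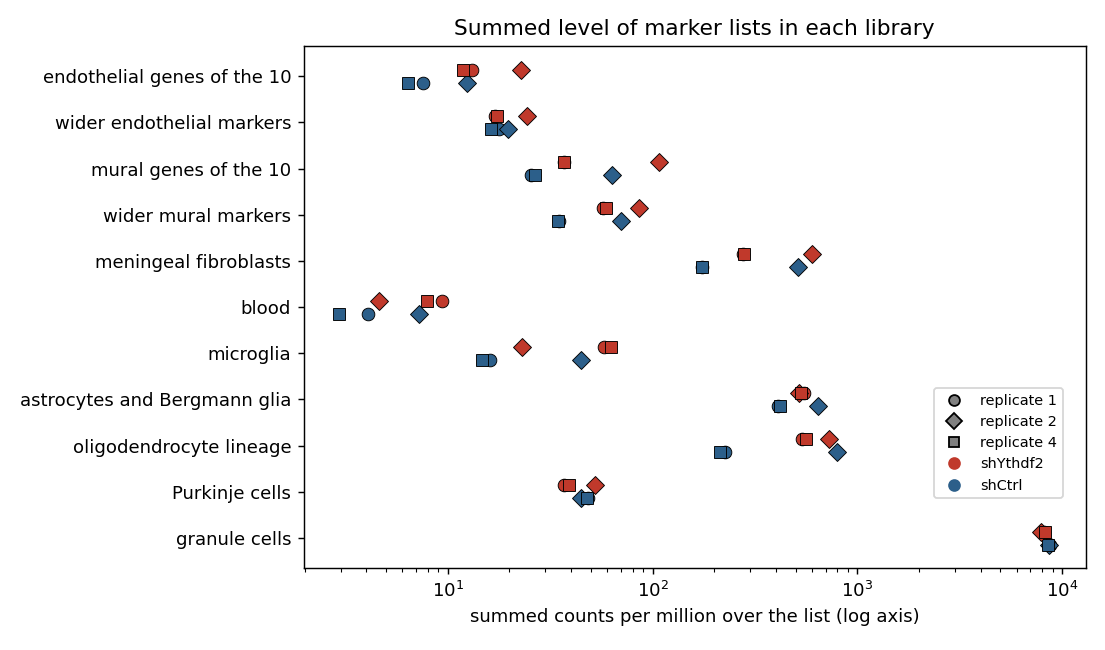
Summed CPM (x axis, log) of lists of marker genes in each library, by group (colour) and replicate number (shape). Replicate 2 lies to the right in both groups for the endothelial and mural genes, the wider endothelial and mural markers, and the fibroblast and oligodendrocyte lists. The GC list lies at 7863 to 8732 in all 6 libraries, far above the vessel genes.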

How the data were processed

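RNA-seq counts of cultured GCs were analysed for 3 shYthdf2 and 3 shCtrl libraries. By the paper's methods, the authors used HISAT and TopHat2 with GRCm38 and HTSeq for counting, and they deposited the counts as whole numbers without normalization. The submitters' processing notes name mm9 and Bowtie 0.12.2 instead, and the kit also differs between the sources. Strandedness is not given in the sources used here. Of the 53421 gene IDs, 52489 were matched to a symbol in GENCODE for GRCm38, and 785 were outside that annotation.

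Genes were kept by filterByExpr (minimum count 10, minimum total 15), which left 17214, and tested with edgeR 4.0.16 in R 4.3.3 by TMM and the quasi-likelihood test, with Benjamini-Hochberg adjustment over all genes tested and a threshold of 0.05. Intervals are 95%. Ratios within a replicate number used a pseudocount of 0.5 normalized counts. RPKM used merged exon lengths of the annotation. The fit was tested on simulated data. Depth was 17246821 to 21546595 counts a library, which limits genes with few counts. The methods call the 3 libraries of a group biological replicates. No label ties a library to a separate culture or animal, and if they were not separate, the p-values would measure only technical spread.

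Deviations from the group means correlated at 0.25, 0.361 and 0.305 between libraries with the same replicate number (1, 2 and 4). Between replicates 1 and 4 of different groups they correlated at 0.147 and 0.123, and between replicate 2 and the others at -0.314 to -0.248. The contrast was thus largest between replicate 2 and the rest. The numbers, taken from the library names, were also used as a block. The members and the gene lists were chosen with earlier results of these data known. The genes named were the 10 members, Ythdf2, all ligands and receptors of the VEGF, angiopoietin and PDGF pathways, those of each list past the threshold or else the 3 with the most counts, and the gene most like each member with a mean of at least 20 normalized counts. Any other gene is named with a statement that it was picked afterwards. As alternatives, RLE factors or library size alone replaced TMM, DESeq2 1.42.0 replaced edgeR, the low-count filter was dropped, the block was added, and single libraries or replicate 2 of both groups were left out. A marker of oligodendrocytes was left out of its list and is not reported here.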

Additional observations from a re-analysis of the deposited data

How the results depend on the processing

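Among all genes, 104 passed the adjusted threshold, 1137 did with DESeq2, 639 without the low-count filter, 232 with the replicate block, and 0 to 9186 with libraries left out (0 without replicate 1 or 4 of either group, 829 without shYthdf2 replicate 2, 3239 without shCtrl replicate 2 and 9186 without replicate 2 of both groups). Of the 9 genes tested, 0 passed, 1 did with the replicate block (Vtn), and 0 to 5 did with libraries left out (Kdr without shCtrl replicate 2, and Cdh5, Flt1, Kdr, Pdgfrb and Vtn without replicate 2 of both groups). The share of all genes past the threshold was 0.604% in the main fit and 1.35% with the replicate block. It was 52.7% without replicate 2 of both groups, so passing there does not set these genes apart. The replicate block changed no other call among the 9. Of 108 alternative values of their log2 fold changes, 96 kept their direction and side of the threshold, 7 passed it, and 5 changed sign. These 5 were -0.16 for Tek without shYthdf2 replicate 4, -0.10 for Tek without shCtrl replicate 2, -0.40 for Rgs5 and -0.28 for Acta2 without shYthdf2 replicate 2, and -0.20 for Rgs5 without replicate 2 of both groups. The cause was not tested. With libraries left out, these 3 genes ranged from -0.16 to 0.36 (Tek), from -0.40 to 0.55 (Rgs5) and from -0.28 to 0.91 (Acta2). The log2 ratio of the summed Cldn5, Pecam1, Cdh5, Flt1, Kdr and Tek ranged from 0.52 to 1.20 and that of the 4 mural genes from -0.05 to 1.22 with libraries left out. Counts under 40 a library limit Pecam1, Flt1 and Tek, and Cldn5 could not be compared.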
